A study of Rattus norvegicus with 16 samples.

Results

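The 6 genes of the fibrin system followed in the kidney of diabetic rats were the fibrinogen chains Fga, Fgb and Fgg, the plasminogen activators Plat and Plau, and the urokinase receptor Plaur. They are 6 of 35849 genes in the deposited table, and each has 1 row there. They were picked from measured values, after Fgb was seen among the largest changes between the DN (diabetic nephropathy) and normal groups. The levels in the DN and normal groups are therefore given as a description, with no p of a member for that difference. The SIN groups were not used for that choice, but each comparison of a SIN group with the DN or the normal group shares 4 rats with it.

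RNA sequencing measured the renal tissue of 16 male Sprague Dawley rats, of which 4 were normal, 4 had DN, and 4 and 4 had DN and were given sinomenine, the SIN (20 mg/kg) group and the SIN (40 mg/kg) group. The rats were 6 to 8 weeks old at the start. Rats of the DN group and of both SIN groups fasted overnight before streptozotocin, a toxin of the insulin-producing beta cells, was injected at 45 mg/kg, were kept only if blood glucose passed 16.7 mmol/L a week later, and ate a diet rich in glucose and fat, while the normal group received citrate buffer and a normal diet. The SIN groups were in addition given sinomenine, an alkaloid of Sinomenium plants, by gavage every day for 8 weeks at 20 or 40 mg/kg. The DN group received vehicle instead. All diabetic groups thus share the toxin, the diet and the selection on glucose, which cannot be told apart from each other here. Sample descriptions begin with codes that run consecutively within each group. Any batch effect that follows these codes cannot be told apart from the condition. The library numbers that end the descriptions are not consecutive within the diabetic groups.

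Fibrinogen is a plasma protein of paired alpha, beta and gamma chains, encoded by Fga, Fgb and Fgg, and thrombin turns it into the fibrin of a clot. It is made above all by hepatocytes, where inflammatory cytokines of the interleukin 6 family raise all chains together. Fibrin is cut by plasmin, which tissue plasminogen activator (Plat) and urokinase (Plau) release from plasminogen, and Plaur holds urokinase at the cell surface. The kidney tubule is a known source of urokinase, and fibrin deposits are known from injured glomeruli and tubules.

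The chain genes lie close together on chromosome 2 of the rat, where the span that holds Fgg, Fga and Fgb has 4 genes, of which only 3 are protein-coding. Plau is on chromosome 15, Plat on chromosome 16 and Plaur on chromosome 1. The chains are held to be switched on together, and their promoter windows are shown so that the letters before each start can be compared, each with 250 bases before and 50 bases after the start of the gene, 5′ to 3′ on the gene's own strand. The sequences are those of RefSeq on the GRCr8 build, at chr2:170671919-170672218 on the plus strand for Fga, at chr2:170700826-170701125 on the minus strand for Fgb and at chr2:170652833-170653132 on the plus strand for Fgg. Capitals mark CTGGGA, the core of the interleukin 6 response element of acute phase genes, and GTTAAT, one arm of the palindrome that the liver factor HNF1 binds, on either strand, so that a match on the other strand reads TCCCAG or ATTAAC.
Fga: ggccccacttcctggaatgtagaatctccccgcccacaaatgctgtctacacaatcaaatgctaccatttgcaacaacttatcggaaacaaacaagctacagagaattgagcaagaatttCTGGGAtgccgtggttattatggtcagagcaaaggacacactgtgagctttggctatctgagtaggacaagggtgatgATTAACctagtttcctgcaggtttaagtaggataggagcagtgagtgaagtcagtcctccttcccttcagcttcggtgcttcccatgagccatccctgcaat
Fgb: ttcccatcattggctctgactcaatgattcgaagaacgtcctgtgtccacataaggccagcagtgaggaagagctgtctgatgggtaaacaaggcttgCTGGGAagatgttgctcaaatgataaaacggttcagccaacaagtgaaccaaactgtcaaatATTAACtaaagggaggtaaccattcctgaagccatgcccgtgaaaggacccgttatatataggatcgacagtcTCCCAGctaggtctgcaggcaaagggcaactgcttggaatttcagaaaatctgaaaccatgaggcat
Fgg: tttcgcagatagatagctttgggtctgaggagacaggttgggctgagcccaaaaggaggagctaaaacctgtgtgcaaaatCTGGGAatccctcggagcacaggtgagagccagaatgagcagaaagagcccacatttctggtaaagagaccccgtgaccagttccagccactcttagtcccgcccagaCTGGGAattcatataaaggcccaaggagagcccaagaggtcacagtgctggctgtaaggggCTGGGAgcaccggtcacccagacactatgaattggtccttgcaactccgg

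CTGGGA stood at position -130 in the Fga window, counted from the start of the gene, at -152 and -17 in the Fgb window, and at -169, -61 and 1 in the Fgg window. The same letters were found on either strand in 30.3% of 33469 windows of this length, in the Plaur window at -90, and not in the Plau window. GTTAAT stood at -52 in the Fga window and at -90 in the Fgb window, with no match in that of Fgg and matches in 7.45% of all windows. The STAT motif TTCNNNGAA likewise had 1 match in the Fga window at -242 and 1 in the Fgb window at -223, none in the Fgg window, and a match in 8.87% of all windows. Matches to the C/EBP letters TTNNGNAA, held by 41.3% of all windows, numbered 1 for Fga, 4 for Fgb, 2 of which overlap each other, 0 for Fgg, 0 for Plau and 2 for Plaur. Among the members with a window, TATAAA was found in that of Fgg alone, at -50, and it was found in 14.2% of all windows. No window was at hand for Plat, which was not searched. These matches are letters in a window and describe neither binding nor use of a site.

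Expression is given as CPM, estimated counts scaled to a common library size by TMM factors over all 16 rats, and genes are set against each other only as TPM, which also divides by the gene length in the table. The kidney held very unequal amounts of the 6 mRNAs. Plau was by far the most abundant, with a mean of 609 TPM over 16 rats and rank 220 of 23143 genes with a count, followed by Plat with 90.8 TPM. The chains were lower, with 12.8 TPM for Fga, 5.71 TPM for Fgb and 0.31 TPM for Fgg, and Plaur had 3.23 TPM. Among the chains the order Fga, Fgb, Fgg held in the mean of every group.

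Fgb (ENSRNOG00000007092), the beta chain, was the member with the widest gap between normal and diabetic kidneys. In the normal group it had 0.978, 1.06, 0.263 and 0.667 CPM, which rest on 6 to 22 estimated counts. The DN group had 4.91, 5.11, 13.02 and 8.71 CPM. The SIN (20 mg/kg) group had 11.997, 5.37, 7.44 and 6.54 CPM. The SIN (40 mg/kg) group had 7.08, 13.5, 3.27 and 4.45 CPM. All 12 diabetic rats lay above every normal rat, the diabetic groups overlapped each other, and the lowest diabetic rat was at 3.07-fold the highest normal rat. The group means were 0.743 ± 0.363 CPM (SD, n = 4) in normal kidneys, 7.94 ± 3.81 CPM in DN kidneys, 7.84 ± 2.9 CPM with SIN at 20 mg/kg and 7.07 ± 4.57 CPM with SIN at 40 mg/kg. The DN mean was 10.7-fold the normal mean, with a fitted log2 fold change of 3.42 ± 0.46 (SE). The 3 diabetic means are neighbours that differ by less than the SD of any one of these groups.

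Fgb as a share of Fga is given as a description, and it was larger in diabetic rats. Per gene length, Fgb was 8.86 ± 4.61% of Fga in the normal group (SD, n = 4), with 3.33% to 13.3% in single rats. It was 52.7 ± 23.1% in the DN group, 50.4 ± 13.5% with SIN at 20 mg/kg and 49.5 ± 25.1% with SIN at 40 mg/kg, and the lowest diabetic rat, in the DN group, had 33.1%. Normal and diabetic rats did not overlap in this ratio. This is no separate result, since Fgb is the numerator and its difference from the normal rats led to the choice of the members.

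**Figure D1:**
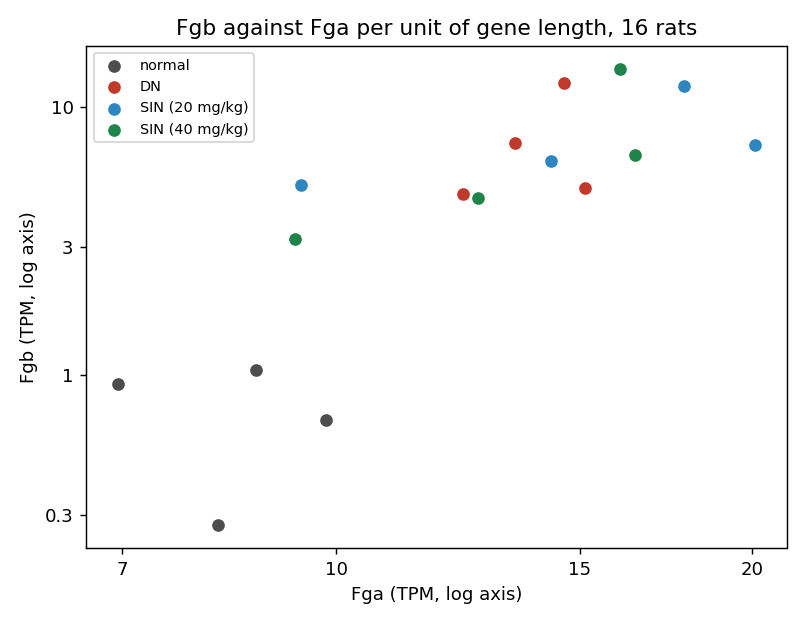
Fgb plotted against Fga in TPM, both on log axes, with 1 point for each of 16 rats, coloured by group. The normal rats lie at the lower left, with Fgb between 0.274 and 1.04 TPM, and the 12 diabetic rats of all groups lie above them, with Fgb from 3.21 to 14.0 TPM.

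Fga (ENSRNOG00000024848), the alpha chain, was measured at 12.9, 15.7, 13.9 and 17.0 CPM in the normal group. The DN rats had 22.4, 27.1, 27.1 and 27.9 CPM, all above every normal rat. Values in the SIN (20 mg/kg) group were 31.4, 17.3, 36.4 and 26.0 CPM, and those in the SIN (40 mg/kg) group were 30.7, 27.2, 16.7 and 21.6 CPM. The SIN groups spread more widely than the others, and 1 rat of the SIN (40 mg/kg) group lay within the normal range. The order of the means was SIN (20 mg/kg) with 27.8 ± 8.17 CPM (SD, n = 4), DN with 26.1 ± 2.51 CPM, SIN (40 mg/kg) with 24.1 ± 6.18 CPM and normal with 14.9 ± 1.85 CPM. The first 3 of these did not differ beyond their spread. The fitted log2 fold change of the DN over the normal group was 0.82 ± 0.12 (SE).

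Fgg (ENSRNOG00000025074), the gamma chain, was close to the limit of detection, with 1 to 20 estimated counts in any rat. The normal rats had 0.233, 0.0484, 0.176 and 0.0889 CPM, and the DN rats had 0.177, 0.253, 0.447 and 0.429 CPM. In the SIN (20 mg/kg) group there were 0.645, 0.437, 0.354 and 0.423 CPM, all above every normal rat. The SIN (40 mg/kg) group had 0.158, 0.0938, 0.14 and 0.968 CPM, so that 3 of its rats lay in the normal range and 1, replicate 4, was the highest of all 16. No comparison kept Fgg after the filter on low counts, and it was compared by an exact permutation test on CPM, two-sided over 70 ways to divide 8 rats, with a smallest possible p of 0.0286. By that test the SIN (20 mg/kg) mean of 0.465 CPM lay above the normal mean of 0.136 CPM (exact p = 0.0286, unadjusted and the smallest possible, which says no more than that the groups do not overlap), and the SIN (40 mg/kg) mean of 0.34 CPM did not pass (exact p = 0.543). Against the DN mean of 0.326 CPM, the exact p was 0.257 at 20 mg/kg and 1.0 at 40 mg/kg, and between the doses it was 0.657. In edgeR's fit with no filter, which did test Fgg, the adjusted p over the normal group was 0.158 at 20 mg/kg and 0.474 at 40 mg/kg. Without SIN (40 mg/kg) replicate 4 the difference from the DN mean went from 0.0136 to -0.196 CPM, and the difference from the normal mean from 0.204 to -0.0057 CPM. The difference from the 20 mg/kg mean went from -0.125 to -0.334 CPM, the other 3 rats all lying below every SIN (20 mg/kg) rat. Per gene length Fgg was at 1.72 ± 1.22% of Fga in the normal group and 2.17 ± 0.758% in the DN group (SD, n = 4), and at 3.17 ± 1.17% and 2.72 ± 3.47% with SIN at 20 and 40 mg/kg.

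**Figure D2:**
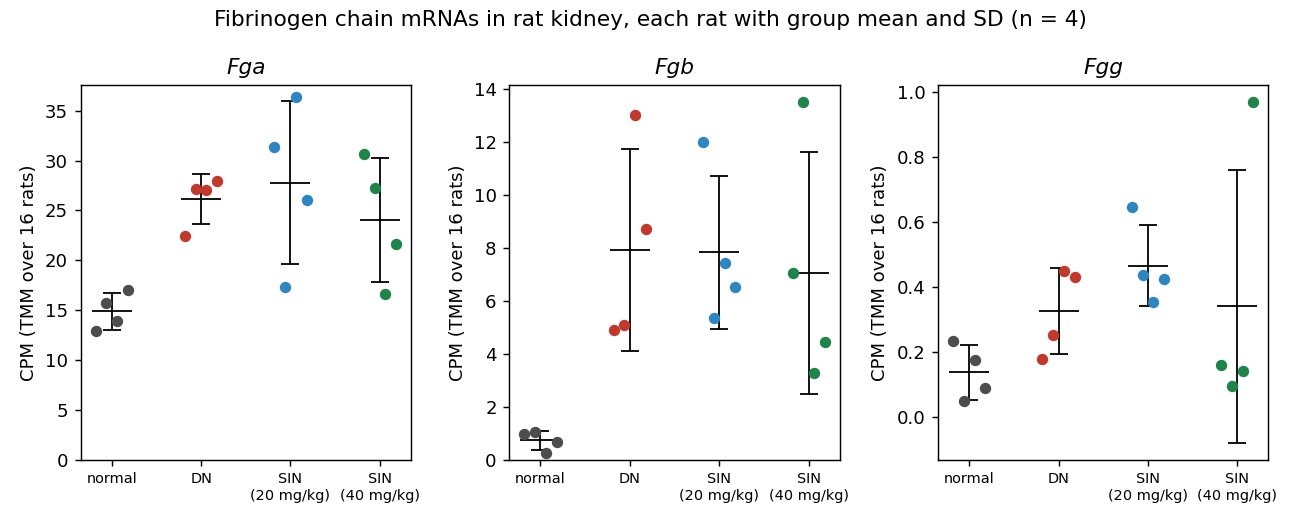
CPM of Fga, Fgb and Fgg in each of 4 rats per group, as points, with the group mean as a horizontal bar and the SD as an error bar; each panel has its own linear axis. Fgb separates the normal rats, at 0.263 to 1.06 CPM, from all diabetic rats, at 3.27 to 13.5 CPM, while in Fgg a single SIN (40 mg/kg) rat at 0.968 CPM carries the mean of its group.

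The first question on SIN was whether the chains of treated diabetic rats differed from those of the DN group. DEGs were genes with an adjusted p under 0.05 in edgeR's quasi-likelihood test and an absolute log2 fold change of 1 or more. By that definition, 0 members were DEGs at 20 mg/kg, where the share over 15724 tested genes was 0.0%. At 40 mg/kg 0 members were DEGs again, against 0.0% of 15530 tested genes. DESeq2 and edgeR's exact test likewise called 0 members in both comparisons. For Fgb the log2 fold change over the DN group was -0.028 ± 0.35 (SE) at 20 mg/kg, with a 95% interval of -0.82 to 0.76. At 40 mg/kg it was -0.17 ± 0.46, with an interval of -1.19 to 0.85. These values of Fgb are a description, since the same DN rats took part in the contrast that led to its choice. Both intervals are wide and do not show that the levels were equal. Without DN replicate 3, which has the highest Fgb of its group, the estimates turned positive, at 0.32 and 0.18.

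For Fga the estimates were small beside their errors. Its log2 fold change over the DN group was 0.082 ± 0.2 at 20 mg/kg, with an interval of -0.37 to 0.53 (edgeR, adjusted p = 0.855), and -0.12 ± 0.18 at 40 mg/kg, with an interval of -0.51 to 0.28 (adjusted p = 0.759).

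The SIN groups were then set against the normal group, to ask how treated diabetic kidneys stood to healthy ones. The values of Fgb are a description here, since its difference from these same 4 normal rats led to the choice of the members. Its log2 fold change over the normal group was 3.39 ± 0.41 (SE) at 20 mg/kg, with an interval of 2.48 to 4.31, and 3.25 ± 0.52 at 40 mg/kg, with an interval of 2.08 to 4.41. It rests on 6 to 22 estimated counts in normal rats, and a filter of at least 10 counts in every rat removed it. Fgb was the 1 of 5 members that met the DEG definition at either dose, where 2.48% of 15877 and 2.47% of 15735 tested genes did, and nothing is read from this count. The share of DEGs in the DN group over the normal group, the contrast that chose the members, was 3.8% of 15775 genes. Fga had a log2 fold change of 0.90 ± 0.21 at 20 mg/kg (edgeR, adjusted p = 0.031), below the fold that a DEG needs, so that with Fgb 2 of 5 members passed the adjusted p alone, as did 6.36% of all genes. At 40 mg/kg the value for Fga was 0.69 ± 0.19 with adjusted p = 0.0573 in the same test, and 1 of 5 members, Fgb, passed the adjusted p, as did 5.97% of all genes. With DESeq2 Fga passed at 40 mg/kg (adjusted p = 0.00862), and without SIN (40 mg/kg) replicate 3, its lowest rat there, edgeR gave an adjusted p of 0.0262. At 20 mg/kg the adjusted p of Fga in edgeR's test was between 0.0548 and 0.0851 when any one of 7 rats was left out. Without SIN (20 mg/kg) replicate 2, the lowest Fga of that group, it was 0.00735 with a log2 fold change of 1.07. Fga thus met the DEG definition in that fit, whose share over all genes is not given here, and nothing is read from this call.

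In single rats, all 4 SIN (20 mg/kg) rats lay above all 4 normal rats in 3 of 6 members, namely Fga, Fgb and the untested Fgg, where groups that do not overlap were found for 13.7% of the tested genes, and at either dose Fgb is there by the choice of the members. All 4 SIN (40 mg/kg) rats lay above all normal rats in 1 member, Fgb, beside 14.3% of the tested genes. Between the DN and normal groups 2 members, Fga and Fgb, did not overlap, beside 24.3% of the tested genes, and nothing is read from this count. The normal rats of these comparisons are the same 4 throughout.

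Plau (ENSRNOG00000010516), the urokinase gene, was high in every rat. The normal group had 694, 880, 767 and 849 CPM and the DN group had 803, 846, 888 and 764 CPM. The SIN (20 mg/kg) group had 631, 689, 557 and 712 CPM, all below every DN rat. The SIN (40 mg/kg) group had 640, 800, 790 and 755 CPM, with 2 rats below every DN rat. The means ran from DN with 825 ± 53.9 CPM (SD, n = 4) over normal with 797 ± 83.7 CPM and SIN (40 mg/kg) with 746 ± 73.2 CPM to SIN (20 mg/kg) with 647 ± 69.4 CPM. Each neighbour in that order except the last lay within the SD of the next. The fitted log2 fold change of the DN over the normal group was 0.054 ± 0.11 (SE).

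At 20 mg/kg the log2 fold change of Plau over the DN group was -0.36 ± 0.11, with an interval of -0.60 to -0.11, unadjusted p = 0.00891 and adjusted p = 0.27 by the edgeR test. Over all its alternatives the adjusted p ran from 0.0509, with DESeq2, to 0.544, so that the difference did not pass the threshold in any of them. It was the 1 of 5 tested members with an unadjusted p under 0.05, where 15.4% of all tested genes had one, and the 1 of 6 members without overlap, where 8.99% of the tested genes had none. At 40 mg/kg Plau gave -0.14 ± 0.11 over the DN group, with an interval of -0.38 to 0.092 (edgeR, adjusted p = 0.5). Against the normal group the values were -0.30 ± 0.11 at 20 mg/kg (edgeR, adjusted p = 0.157) and -0.099 ± 0.11 at 40 mg/kg (adjusted p = 0.643).

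Plat (ENSRNOG00000019018), the gene of tissue plasminogen activator, which endothelial cells are known to release, showed no separation of groups. The normal group had 133, 184, 142 and 115 CPM and the DN group had 218, 144, 138 and 196 CPM. The SIN (20 mg/kg) group had 121, 149, 138 and 181 CPM and the SIN (40 mg/kg) group had 137, 143, 150 and 161 CPM. The highest value was that of a DN rat, and every pair of groups overlapped. The means were 174 ± 39.4 CPM (SD, n = 4) in DN kidneys, 148 ± 10.3 CPM with SIN at 40 mg/kg, 147 ± 25.3 CPM with SIN at 20 mg/kg and 143 ± 29.6 CPM in the normal group. The first and the next differ by less than the SD of the DN group but by more than that of the SIN (40 mg/kg) group, and the later neighbours differ by less than either SD. The log2 fold change over the DN group was -0.24 ± 0.17 at 20 mg/kg, with an interval of -0.63 to 0.14 (edgeR, adjusted p = 0.491), and -0.23 ± 0.15 at 40 mg/kg, with an interval of -0.57 to 0.10 (adjusted p = 0.448). Over the normal group it was 0.037 ± 0.16 and 0.039 ± 0.13, with edgeR's adjusted p at 0.93 and 0.895. The DN over normal value was 0.28 ± 0.19 (SE). Per gene length, Plat was 13.3 ± 2.36% of Plau in the normal group and 15.7 ± 4.38% in the DN group (SD, n = 4), and 16.8 ± 2.15% and 14.7 ± 1.28% in the SIN groups at 20 and 40 mg/kg.

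Plaur (ENSRNOG00000037931), the urokinase receptor, was a rare mRNA that rests on 28 to 75 estimated counts a rat. The normal group had 2.28, 2.18, 2.68 and 1.25 CPM and the DN group had 3.32, 2.63, 2.64 and 1.90 CPM. The SIN (20 mg/kg) group had 1.89, 2.62, 1.67 and 2.82 CPM. The SIN (40 mg/kg) group had 1.53, 1.64, 1.40 and 1.45 CPM, below every rat of the DN and SIN (20 mg/kg) groups, though the lowest normal rat lay below them all. The means were 2.62 ± 0.578 CPM (SD, n = 4) in DN kidneys, 2.25 ± 0.557 CPM with SIN at 20 mg/kg, 2.1 ± 0.606 CPM in normal kidneys and 1.51 ± 0.105 CPM with SIN at 40 mg/kg. The first 3 did not differ beyond their spread. The DN over normal log2 fold change was 0.33 ± 0.29 (SE).

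Plaur at 40 mg/kg had a log2 fold change of -0.80 ± 0.24 over the DN group, with an interval of -1.34 to -0.26, unadjusted p = 0.00826 and adjusted p = 0.2 by the edgeR test. The adjusted p ran from 0.0863, with DESeq2, to 0.419 over its alternatives. Plaur was the 1 of 5 tested members with an unadjusted p under 0.05 at this dose, beside 17.1% of all tested genes, and the 1 of 6 members without overlap, beside 10.4%. At 20 mg/kg it gave -0.22 ± 0.27, with an interval of -0.82 to 0.38 (edgeR, adjusted p = 0.684). Over the normal group the values were 0.10 ± 0.3 at 20 mg/kg (edgeR, adjusted p = 0.888) and -0.48 ± 0.28 at 40 mg/kg (adjusted p = 0.338).

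**Figure D3:**
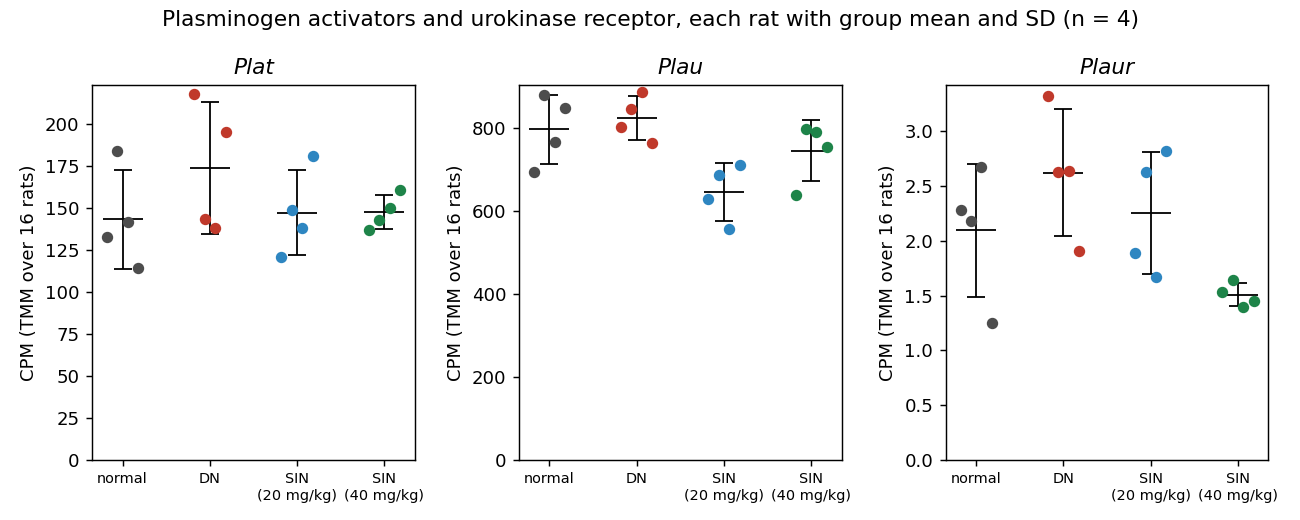
CPM of Plat, Plau and Plaur in each of 4 rats per group, as points, with the group mean as a horizontal bar and the SD as an error bar; each panel has its own linear axis from 0. The SIN (20 mg/kg) rats have Plau between 557 and 712 CPM, below the DN rats at 764 to 888 CPM, and the SIN (40 mg/kg) rats have Plaur between 1.40 and 1.64 CPM, below the DN rats at 1.90 to 3.32 CPM.

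The doses were compared directly as well, which uses no rat of the contrast that chose the members. Here 0 members were DEGs by the edgeR test, beside 0.00639% of 15657 tested genes, which is a single gene, and DESeq2 and edgeR's exact test called 0 members. Plaur had the largest difference, with a log2 fold change of -0.59 ± 0.26 (SE) of 40 over 20 mg/kg, an interval of -1.15 to -0.019, unadjusted p = 0.0439 and adjusted p = 0.961 by edgeR's test. It was the 1 of 5 tested members with an unadjusted p under 0.05, beside 4.98% of all tested genes, and the 1 of 6 members without overlap, beside 3.31%. The others were -0.21 for Fga with an interval of -0.75 to 0.32, -0.16 for Fgb with -1.08 to 0.77, -0.0028 for Plat with -0.28 to 0.27 and 0.20 for Plau with -0.054 to 0.45. The adjusted p of these 4 lay between 0.964 and 0.999 in edgeR's test.

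**Figure D4:**
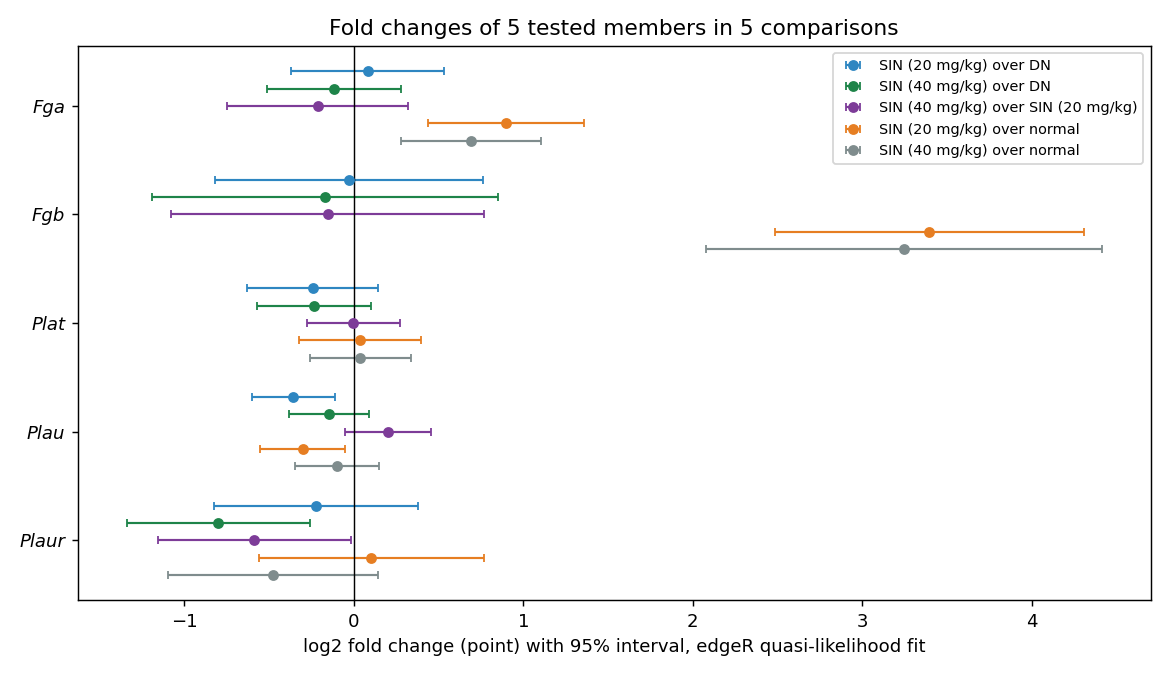
Fitted log2 fold changes of the 5 tested members, on the horizontal axis, in 5 comparisons marked by colour, with points for the estimates and bars for 95% intervals. Fgb over the normal group lies near 3.39 and 3.25 at the 2 doses, while its values over the DN group, -0.028 and -0.17, have intervals across 0.

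The chains were also followed from rat to rat within the diabetic groups. Over the 12 diabetic rats Fga and Fgb in log2 CPM had Pearson's r = 0.656 (permutation p = 0.0211) and Spearman's rho = 0.692 (permutation p = 0.016). This was 1 of 10 pairs of tested members, and after Benjamini-Hochberg adjustment the permutation p was 0.211 for r and 0.16 for rho, so it did not pass. Without the 2 rats farthest from the median of Fga r was 0.471, and over deviations from the group means it was 0.638. By the same measures Fga and Plau had r = -0.699 and -0.607, so these values do not set the chains apart from other pairs. In the other 9 pairs the adjusted permutation p of r was 0.502 or more.

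Genes whose pattern over all 16 rats was most like that of a member are given by Pearson's r of log2 CPM, as a description, since the difference between normal and diabetic rats is in every such value. For Fgb these were an assembled locus with no symbol (r = 0.926), Myh7b (0.923), Gstz1 (0.92), Krt8 (0.915) and Serpina4 (0.905), and over deviations from the group means their r was between 0.468 and 0.727. Krt8, a keratin of simple epithelia, had 156, 278, 285 and 272 CPM in the normal group, the DN group and the SIN groups at 20 and 40 mg/kg. Serpina4, a serine protease inhibitor known as kallistatin, had 0.684, 3.51, 6.17 and 5.56 CPM in the same order. The gene most like Fga was Abcc6 (r = 0.862), that most like Fgg was Atp5if1 (0.793), that most like Plat was Pigv (0.865), that most like Plau was Elk1 (0.852) and that most like Plaur was Popdc2 (0.846).

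Other genes of the system were taken from fixed lists. Plasminogen itself, the substrate of both activators and a liver product, had at most 0.149 CPM in the mean of any group. Of 16 genes on the fibrinolysis list, which holds inhibitors, receptors and integrins, 15 are in the table and 12 were tested. None was a DEG in a comparison of a SIN group with the DN group by the edgeR test. At 20 mg/kg 1 was higher and 1 lower by an unadjusted p under 0.05, and at 40 mg/kg 2 were higher and 2 lower, where 15.4% and 17.1% of all tested genes had such a p, while the list's median log2 fold change was -0.028 and -0.12 beside -0.0074 and 0.0067 over all tested genes. Serpinf2, alpha 2-antiplasmin, the direct inhibitor of plasmin, had 376 ± 54.3 CPM in normal kidneys, 357 ± 49.7 in DN kidneys, 277 ± 24.7 with SIN at 20 mg/kg and 268 ± 47.4 with SIN at 40 mg/kg (SD, n = 4). Its log2 fold change over the DN group was -0.37 ± 0.12 and -0.41 ± 0.14 at the lower and higher dose (edgeR, adjusted p = 0.27 and 0.221). Plgrkt, a plasminogen receptor, gave 0.55 ± 0.18 at 20 mg/kg (edgeR, adjusted p = 0.271). Serpine2, a nexin that inhibits urokinase and thrombin, gave -0.45 ± 0.18 and Itgav, an integrin subunit that binds vitronectin, gave 0.59 ± 0.19 at 40 mg/kg (edgeR, adjusted p = 0.251 and 0.215).

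Of 28 coagulation factors and regulators 27 are in the table, and 19 were tested at 20 mg/kg and 17 at 40 mg/kg over the DN group. Again 0 were DEGs in edgeR's test, with 0 higher and 1 lower by an unadjusted p under 0.05 at 20 mg/kg and 2 higher and 0 lower at 40 mg/kg, beside 15.4% and 17.1% of all genes, and medians of -0.057 and -0.036. F3, tissue factor, the trigger of clotting, had 72.9 ± 12.9 CPM in normal kidneys, 46.4 ± 8.36 in DN kidneys, 61.1 ± 19.5 with SIN at 20 mg/kg and 63.1 ± 9.73 with SIN at 40 mg/kg (SD, n = 4). Over the DN group at 40 mg/kg it gave 0.44 ± 0.15, and F13b, the carrier subunit of the factor that crosslinks fibrin, gave 0.90 ± 0.31 (edgeR, adjusted p = 0.221 and 0.218). Thbd, thrombomodulin, the thrombin receptor of endothelium, gave -0.30 ± 0.12 at 20 mg/kg (edgeR, adjusted p = 0.304), and F13a1, the catalytic subunit beside F13b, gave -0.81 ± 0.51 at 40 mg/kg (adjusted p = 0.433). Over the normal group 4 of 17 tested genes passed an adjusted p under 0.05 at 20 mg/kg with a smaller fold than a DEG, the protease receptor F2r upward and Thbd, Proc and Pros1 downward, and F2r and Proc passed again at 40 mg/kg. The same p was passed by 6.36% and 5.97% of all genes.

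All 9 fibrinogen-like and fibrin-binding matrix genes are in the table and 8 were tested, Vtn being on the fibrinolysis list too. Over the DN group 0 were DEGs in edgeR's test, 1 was higher and 1 lower by an unadjusted p under 0.05 at 20 mg/kg, 0 were higher and 3 lower at 40 mg/kg, beside 15.4% and 17.1% of all genes, and the medians were -0.11 and -0.21. Tgm2, a transglutaminase that crosslinks matrix proteins, had 175 ± 18.4 CPM in the normal group, 188 ± 21.1 CPM in the DN group and 128 ± 16.1 and 113 ± 8.28 CPM in the SIN groups at 20 and 40 mg/kg (SD, n = 4), with log2 fold changes over the DN group of -0.56 ± 0.12 and -0.74 ± 0.10 (edgeR, adjusted p = 0.27 and 0.14). Over the normal group it was the 1 gene of the list to pass an adjusted p under 0.05, at -0.45 ± 0.12 and -0.64 ± 0.10 (edgeR, adjusted p = 0.0492 and 0.00596). Fgl2, a membrane enzyme that cleaves prothrombin, gave 0.72 ± 0.26 at 20 mg/kg, and at 40 mg/kg Cdh5, the endothelial cadherin that binds fibrin fragments, gave -0.31 ± 0.11 and Itgb2, the beta chain of the leukocyte fibrinogen receptor, gave -0.41 ± 0.16 (edgeR, adjusted p = 0.286, 0.23 and 0.259).

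Acute phase and interleukin 6 family genes were the last list, with 27 of 29 in the table and 19 tested. Over the DN group 0 were DEGs in edgeR's test, 0 were higher and 1 lower by an unadjusted p under 0.05 at 20 mg/kg, 1 was higher and 4 lower at 40 mg/kg, beside 15.4% and 17.1% of all genes, and the medians were 0.02 and -0.2. A2m, alpha 2-macroglobulin, an acute phase protein of the rat, had 0.431 ± 0.573 CPM in normal kidneys, 2.52 ± 2.03 in DN kidneys, 2.15 ± 2.54 with SIN at 20 mg/kg and 3.68 ± 3.46 with SIN at 40 mg/kg (SD, n = 4), with log2 fold changes over the normal group of 2.34 ± 1.27 and 3.10 ± 1.25 (edgeR, adjusted p = 0.331 and 0.175). Hp, haptoglobin, a classical acute phase gene of the liver, had at most 0.315 CPM in the mean of any group. Apcs, serum amyloid P, was the single DEG of the list over the normal group and was lower in diabetic rats, from 149 ± 43.3 CPM in the normal group to 64.1 ± 24 in the DN group, 59 ± 13.9 with SIN at 20 mg/kg and 61.7 ± 15.8 with SIN at 40 mg/kg (SD, n = 4). Over the normal group its log2 fold change was -1.34 ± 0.23 at 20 mg/kg and -1.28 ± 0.23 at 40 mg/kg (edgeR, adjusted p = 0.00872 and 0.0112). Socs3, an inhibitor that interleukin 6 signalling induces, had 4.67 ± 0.46, 6.59 ± 1.13, 6.45 ± 2.87 and 3.07 ± 0.363 CPM in the normal group, the DN group and the SIN groups at 20 and 40 mg/kg, and gave -1.10 ± 0.19 over the DN group at 40 mg/kg (edgeR, adjusted p = 0.167).

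**Figure D5:**
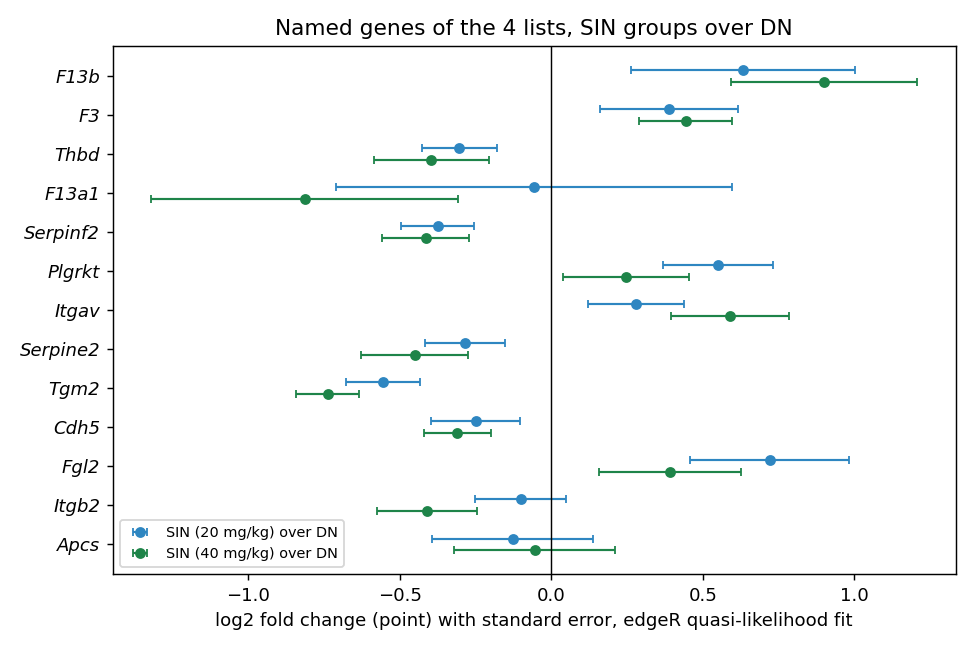
Fitted log2 fold changes, on the horizontal axis, of the genes picked from the 4 lists by the naming rule, with SIN at 20 and 40 mg/kg, marked by colour, over the DN group, with points for the estimates and bars for standard errors. Tgm2 is at -0.56 and -0.74 and Serpinf2 at -0.37 and -0.41, and none of the genes shown passed an adjusted p under 0.05 by edgeR.

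Markers of other cells were summed in CPM beside these results. Hepatocyte markers, with 14 of 15 in the table and 5 at 10 or more counts in every rat, summed to between 165 and 232 CPM in the normal group, 176 and 269 in the DN group, 132 and 299 with SIN at 20 mg/kg, and 180 and 305 with SIN at 40 mg/kg. None was at 0 in every rat, but Alb had 0 to 39 counts a rat, Ttr 0 to 4, Apoa1 0 to 3 and Apoa2 0 to 2, while Tf, transferrin, held most of the sum. Other markers were higher, with 289 to 650 counts a rat for Apoc3, 256 to 1301 for F2 and 77 to 318 for Apoh. These markers moved in opposite directions. Cyp2c11 had 24.6 CPM in normal kidneys against 2.94, 3.67 and 1.97 CPM in the DN group and the SIN groups at 20 and 40 mg/kg. Serpina1, on 0 to 124 counts a rat, had 0.364 against 0.93, 3.51 and 1.69 CPM. Injured tubule markers, 9 of 9 in the table, 8 at 10 or more counts in every rat and none at 0, were higher in sum in every diabetic rat than in any normal rat, with between 534 and 861 CPM in the normal group and 1014 to 1631, 1126 to 2560 and 878 to 1721 CPM in the DN group and the SIN groups at 20 and 40 mg/kg. The rats with the highest Fgb in these diabetic groups had sums of 1361, 2560 and 1186 CPM, the last below its group mean of 1362 CPM. Spp1, Clu and Krt8 held most of the sum. The list did not move as one, since Vcam1 had 28.4 CPM in normal kidneys against 14.3, 18.0 and 15.98 CPM in the DN group and the SIN groups at 20 and 40 mg/kg, and Sox9 had 16.9 against 13.8, 10.9 and 8.67 CPM. Collecting duct markers, 4 of 4 with 10 or more counts in every rat, were higher as well, with 292 to 898 CPM in the normal group against 615 to 1743, 866 to 1530 and 926 to 1779 CPM in the same diabetic groups, so that they overlapped. Thick ascending limb markers, 2 of 2 in the table, were lower in sum, with 3376 to 4424 CPM in the normal group against 1863 to 3213, 2703 to 2884 and 2151 to 2757 CPM, with no overlap. This list did not move as one in the SIN groups. Over the normal group 1 of these 2 markers had a positive log2 fold change at either dose, and 0 had one in the DN group. Leukocyte markers summed to between 234 and 547 CPM in the normal group and 331 and 459 CPM in the diabetic groups, and platelet markers to 19.0 to 30.8 CPM over all rats, with Ppbp at 0. DN replicate 3, the DN rat with the most Fgb, stands apart, with urothelium markers at 119 CPM against 1.77 to 11.3 in the other DN rats and muscle markers at 485 CPM against 86.2 to 112, and without it the DN over normal log2 fold change of Fgb was 3.07. All 6 proximal tubule markers had 10 or more counts in every rat. The part of any of these cells in the levels of the members was not tested, and in whole tissue fewer cells of a type and less RNA per cell cannot be told apart.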

How the data were processed

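Renal tissue of 16 rats was sequenced after oligo(dT) enrichment of mRNA on an Illumina platform, and per the labels the authors used TopHat, Bowtie, RSEM and edgeR. The values deposited by the authors for 35849 genes in each rat, beside a gene length, were taken as estimated counts with no normalization, because RSEM is among the tools and 86.2% of values were whole numbers, but the sources used here do not name the counting program. All were rounded. Columns were joined to rats by the library number that ends a sample's description, and the means of the columns so joined equal the deposited group means within 0.001. Totals ran from 19616312 to 25217030 a rat, so that values resting on few counts, such as those of Fgg, are imprecise. The table also holds 4 single-library columns of no sample record, which were not used. The members, the gene lists and the tests were chosen with earlier results of these data known. Each pair of groups was fitted by edgeR 4.0.16 (quasi-likelihood test, TMM, filterByExpr, 8 rats) in R 4.3.3, two-sided, with Benjamini-Hochberg adjustment over all genes tested and intervals from the standard error and the degrees of freedom of the fit. The labels number the rats within a group and nothing says that numbers pair them, and same-numbered rats did not deviate together (r from -0.239 to 0.244). Alternatives were DESeq2 1.42.0, edgeR's exact test, RLE, other filters, all 16 rats in one fit, a replicate block and each rat left out. CPM used TMM factors over 16 rats, and log2 CPM a prior count of 2. Permutation tests of correlations drew 100000 resamples in scipy 1.17.1 under Python 3.11.15. Promoter windows are those of RefSeq on GRCr8, which gave one for 5 of the 6 members and none for Plat, and the first of 2 was taken for Fga. Genes named are the members, the DEGs of each list or else its 4 genes with the smallest unadjusted p against the DN group, and the 5 genes most like Fgb and 3 most like each other member, of which the first is given. The rule does not cover Plg, F2r, Proc, Pros1, A2m, Hp, Socs3 and the cell markers, whose values were known when they were picked.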

Additional observations from a re-analysis of the deposited data

Results flagged for a closer look

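Among 24 sets of 4 rats, 1 for each member and group, 2 held a rat whose distance from its nearest neighbour was most of the range of the group, and chance alone marks about 1 in 20 such sets. Fga in the DN group had its lowest rat, replicate 1, at 22.4 CPM, while the other DN rats lay between 27.1 and 27.9 CPM. Fgg in the SIN (40 mg/kg) group had its highest rat, replicate 4, at 0.968 CPM, while the others lay between 0.0938 and 0.158 CPM, on 2 to 20 estimated counts in the group.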

How the results depend on the processing

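Of 447 log2 fold changes of members under an alternative, 423 kept their direction and call, 23 changed sign and 1 became a DEG. Nothing is read from the counts of members over the normal group, which the choice of Fgb sets in part. A minimum of 10 counts in every rat removed Fgb, which has 6 counts in 1 normal rat. It left 0 DEGs among the members in the comparisons of the SIN groups with the normal group. The adjusted p without a fold threshold gave 2 members at 20 mg/kg over the normal group, where 6.36% of all tested genes passed it. Leaving out 1 rat gave 1 to 2 members there.

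The number of DEGs over all genes moved more. At 20 mg/kg over DN the 0 DEGs became 28 with DESeq2, 26 with edgeR's exact test, 2 with no filter, 2 with at least 10 counts in every rat, 5 in a fit of all 16 rats and 173 by the unadjusted p. At 40 mg/kg over DN the 0 became 58, 40 and 2 with DESeq2, the exact test and all 16 rats, 206 by the unadjusted p and 0 to 3 with 1 rat left out, with 1 without DN replicate 1 and 3 without DN replicate 3. Between the doses the 1 DEG became 4 with DESeq2, 3 with the exact test, 0 with all 16 rats, 113 by the unadjusted p and 0 to 5 with 1 rat left out, with 0 without SIN (40 mg/kg) replicate 2 or 4 and 5 without its replicate 1. Over the normal group the 394 and 388 DEGs became 1009 and 940 with no fold threshold and 708 and 735 by the unadjusted p, and the 599 of DN over normal became 3074 with no fold threshold and 306 to 741 with 1 rat left out, with 306 and 341 without normal replicates 4 and 3 and 381 without DN replicate 2. The cause was not tested.

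With a replicate block DN over normal had 383 DEGs and the doses 0, the Fgb value over DN at 20 mg/kg turned to 0.016 and the Plat value between the doses to 0.0096, and no member became or ceased to be a DEG, but the adjusted p of Fga at 20 mg/kg over the normal group went from 0.031 to 0.0679 in edgeR's test and no longer passed. Nothing in the labels says that the numbers pair the rats.

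With 1 rat left out, the fold changes that crossed zero ranged as follows on the log2 scale. Against DN at 20 mg/kg Fga ran from -0.074 to 0.25 and Fgb from -0.31 to 0.32, and at 40 mg/kg Fga ran from -0.26 to 0.022 and Fgb from -0.71 to 0.18, where both Fgb maxima were without DN replicate 3, its highest rat. Between the doses Fgb ran from -0.67 to 0.13 and Plat from -0.083 to 0.11. Over normal at 20 mg/kg Plat ran from -0.077 to 0.18 and Plaur from -0.082 to 0.24, at 40 mg/kg Plat ran from -0.064 to 0.18, and in DN Plau ran from -0.0050 to 0.095. The Fgg difference of the SIN (40 mg/kg) group ran from -0.196 to 0.0957 CPM against DN and from -0.00572 to 0.286 CPM against normal. None of these was a DEG.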
